A study of Homo sapiens with 12 samples.

Results

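Semaphorins are secreted or membrane-bound ligands, known first from axon guidance and later from immune cells, that signal through plexins, in part with neuropilins as coreceptors. Plexins carry a GTPase-activating domain inside the cell and act on small GTPases and the actin cytoskeleton. In lymphoid cells, SEMA4A and SEMA4D are known as costimulatory ligands, and SEMA4D and its receptors have been studied in thymocytes. The 10 genes described here were picked from the 63677 of the count table because SEMA4A rose strongly in the C25 line with doxycycline. They are 6 ligands (SEMA4A, SEMA4B, SEMA4C, SEMA4D, SEMA4F and SEMA7A) and 4 receptors (PLXNB2, PLXND1, PLXNC1 and NRP1). Of them, 9 passed the filter on low counts, as did 16287 genes in all. SEMA4C did not pass it.

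RNA was sequenced from 12 libraries of HPB-ALL, an established line of human T-cell acute lymphoblastic leukaemia. All cells carried lentiviral, doxycycline-inducible transgenes and had been selected with a drug. The transgene was TAL1 in the T5 line, LMO1 in the L4 line, and both (TAL1/LMO1) in the C25 line. TAL1 binds DNA as a helix-loop-helix factor, LMO1 is a LIM-only adaptor in its complexes, and both act as oncogenes in T cells. Each line was given doxycycline (dox) or DMSO, with 2 libraries for each of the 6 groups. No line without a transgene was among them, so an effect of doxycycline itself cannot be told apart from that of a transgene. The labels name 1 line for each transgene, and do not say whether it was a clone or whether replicates were separate cultures. P-values therefore measure the spread between these libraries, which may be technical.

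The libraries held between 14865073 and 15917713 counts on genes. Levels are given in CPM, the usual count relative to library size, with library sizes scaled by the trimmed mean of M values (TMM). All 15 markers of T cells and cortical thymocytes reached 2 CPM in at least 1 group, but their levels differed between groups. With DMSO, their log2 differences between T5 and L4 ran from -6.30 to 6.79. With doxycycline, 6 of the 15 were called higher in L4 (edgeR), where 2.14% of all genes were called. In T5, 0 were called, where 1.84% of all genes were. In C25 the log2 differences with doxycycline ran from -3.74 to 0.88 (median -0.86), given without a test. Of 7 markers of monocytes and macrophages, FCGR3A, S100A8 and S100A9 were at 0 in every library, and the 7 summed to 1.54 CPM at most. Of 6 dendritic cell markers, CLEC4C, CLEC9A, FCER1A and ITGAX were at 0 throughout, and the 6 summed to 15.99 to 34.6 CPM per library, mostly through CD1C, which cortical thymocytes also express. The 5 B cell markers summed to 3.75 to 10.3 CPM, with CD79A and CD79B above 2 CPM in at least 1 group and MS4A1 at 0. The 5 epithelial and fibroblast markers summed to 0.373 to 13.1 CPM, highest in L4 and mostly through CDH1, with EPCAM at 0. The part of other cells in the results was not tested. TAL1 rose in T5 from 4.06 and 3.88 CPM to 35.5 and 42.9 CPM (log2 difference 3.30, SE 0.29, adjusted p = 0.0028 by edgeR's quasi-likelihood test). That adjusted p was 0.051 without the second T5 DMSO library. LMO1 rose in L4 from 3.93 and 1.76 CPM to 239 and 212 CPM (log2 difference 6.31, SE 0.43, adjusted p = 0.00060). Without the first L4 DMSO library the LMO1 difference was 6.997. In C25 with doxycycline TAL1 stood at 932 and 868 CPM, and LMO1 had a mean of 1539 CPM. TAL1 was thus at a far higher level in C25 than in T5. T5 and C25 differ in the amount of TAL1 as well as in the presence of LMO1. LMO1 was likewise far higher in C25 than in L4, where its mean with doxycycline was 226 CPM. L4 and C25 thus differ in the amount of LMO1 as well as in the presence of TAL1.

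SEMA4A (ENSG00000196189) stood at 0.962 and 1.93 CPM in C25 with DMSO and at 159 and 166 CPM with doxycycline. These levels rest on 15 and 30 counts with DMSO and on 2562 and 2703 counts with doxycycline. The ratio was 112, with a 95% exact interval of 83.9 to 154 that covers counting error only. The log2 difference was 6.81 (SE 0.22) and became 7.38 without the second C25 DMSO library. This contrast chose the genes, so its values are a description and carry no test. In bulk RNA, more cells with a transcript and more of it per cell cannot be told apart. In T5, SEMA4A had 2 and 4 counts with DMSO (0.131 and 0.259 CPM) and 1 and 2 counts with doxycycline (0.0655 and 0.127 CPM). In L4 it had 2 and 3 counts with DMSO (0.131 and 0.196 CPM) and 3 and 5 counts with doxycycline (0.198 and 0.325 CPM). All 8 libraries of the single-transgene lines thus lay near the level of 3 counts, which is 0.190 to 0.198 CPM there. A response in T5 or L4 was not detectable at this depth. The dox-to-DMSO ratio was 0.495 in T5 (95% exact interval 0.0800 to 2.32) and 1.60 in L4 (0.462 to 6.23). These intervals too cover counting error only. They are no test against the C25 ratio, since that ratio chose the gene.

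SEMA4A was already higher in C25 than in the other lines with DMSO. It was 7.40 times its level in T5 (95% exact interval 3.15 to 21.2) and 8.85 times that in L4 (3.53 to 28.6). The C25 DMSO libraries belong to the contrast that chose SEMA4A, so this too is a description, with intervals for counting error only. The second C25 DMSO library had more SEMA4A, TAL1 and LMO1 than the first: LMO1 was at 0.449 and 6.89 CPM and TAL1 at 3.08 and 7.34 CPM. A direction shared over 2 libraries shows no link between them, and none was tested. As percentages of the mean dox level, the C25 DMSO libraries held 0.592% and 1.19% for SEMA4A, 0.342% and 0.816% for TAL1, and 0.0292% and 0.448% for LMO1. The part of transgene RNA without doxycycline, or of reads from other libraries, in these SEMA4A counts was not tested.

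**Figure D1:**
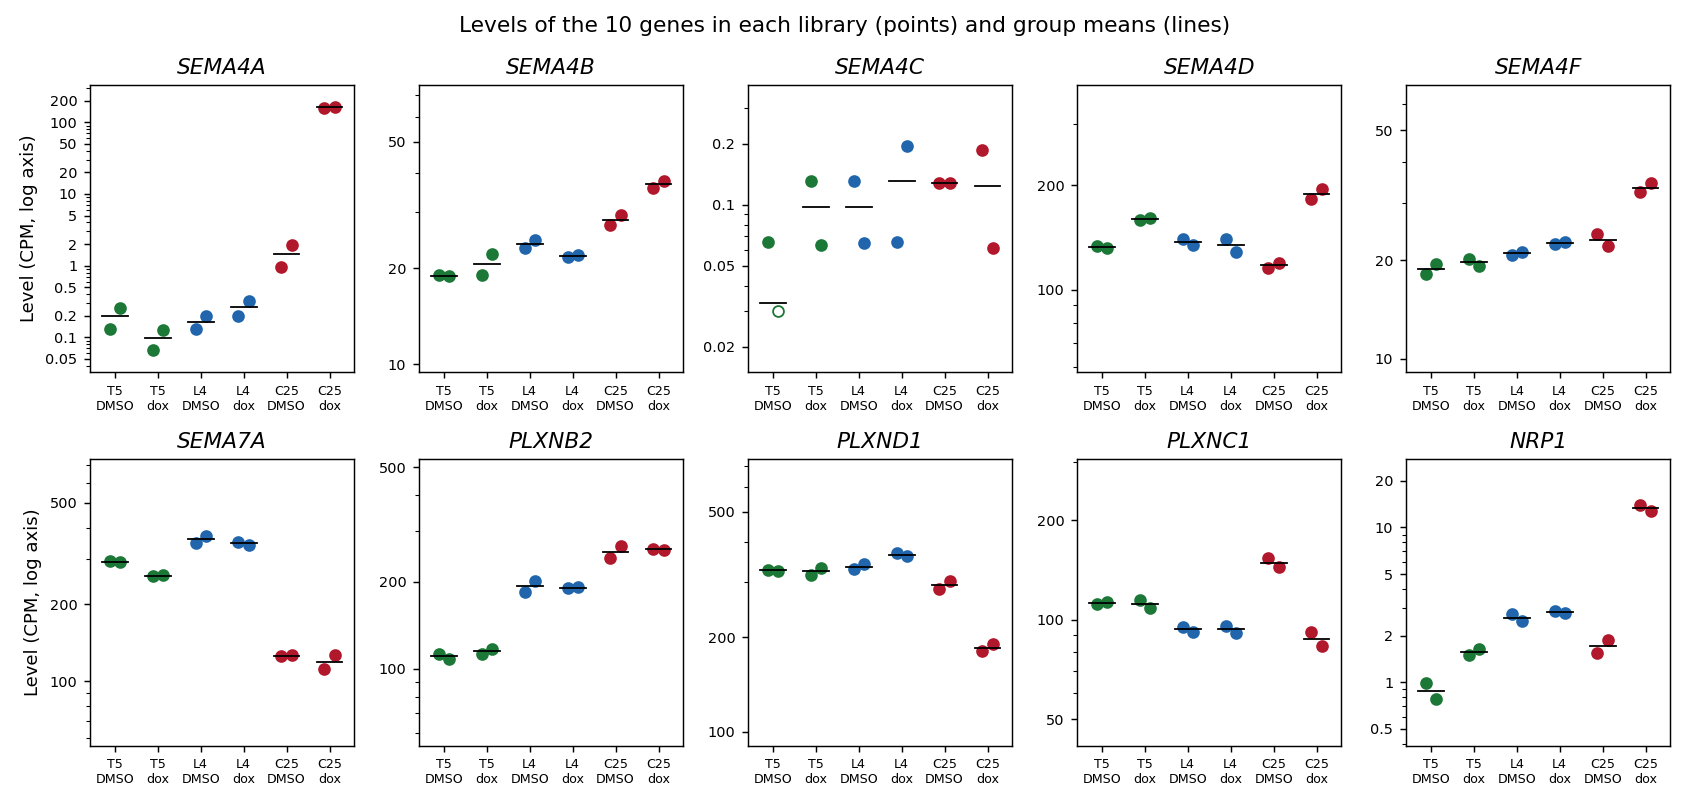
Level in CPM (log axis, with its own range in each panel) of the 10 genes in each of the 12 libraries, by line (green T5, blue L4, red C25) and treatment; points are libraries, black lines group means, and the open point is a library at 0, drawn at 0.03. SEMA4A is near or below 0.3 CPM in T5 and L4 and at 159 and 166 CPM in C25 with doxycycline, while SEMA7A and PLXNB2 separate the lines more than the treatments.

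Promoter sequence is shown for SEMA4A, the gene on which the choice rests, for SEMA4D, which rose in T5 too, and for PLXNB2, whose level hardly moved with doxycycline. The sequences are from RefSeq (GRCh38.p14), in which 9 of the 10 genes have 16 windows of 250 bases before a transcription start. NRP1 had no window. Both strands were searched for the E-box CANNTG, the kind of site that TAL1 and its partners bind. Also searched were the E-box form CAGATG, the motif AGATAA of GATA factors and the motif TGTGGT of RUNX factors. Capitals mark the matches. CAGATG matches are also CANNTG matches, and matches can overlap. For SEMA4A, 3 short stretches of the first of its 4 windows are shown, at 250 to 222, 218 to 189 and 115 to 87 bases before the start (chr1:156149694-156149722, chr1:156149726-156149755 and chr1:156149829-156149857, plus strand). The SEMA4D window is chr9:89495657-89495906 and the PLXNB2 window chr22:50301670-50301919, both on the minus strand.
SEMA4A, 250 to 222: gttgtaaagaggaatgggcccCAGCTGac
SEMA4A, 218 to 189: ctgaaccCAGGTGgtgaCATGTGcacggtg
SEMA4A, 115 to 87: CATCTGgagcccctcctcctcCACATGTG
SEMA4D: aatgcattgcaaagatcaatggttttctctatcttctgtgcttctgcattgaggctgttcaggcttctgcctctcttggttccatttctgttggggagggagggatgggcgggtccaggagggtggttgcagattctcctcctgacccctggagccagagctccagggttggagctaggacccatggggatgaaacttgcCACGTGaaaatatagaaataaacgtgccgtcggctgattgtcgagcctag
PLXNB2: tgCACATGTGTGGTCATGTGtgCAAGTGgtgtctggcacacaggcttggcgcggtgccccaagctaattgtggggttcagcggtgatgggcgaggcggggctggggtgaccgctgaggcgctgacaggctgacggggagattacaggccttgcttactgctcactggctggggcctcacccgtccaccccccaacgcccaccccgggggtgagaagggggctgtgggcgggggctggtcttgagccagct

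This SEMA4A window held 6 CANNTG matches, 1 of them also CAGATG (as its reverse complement CATCTG), and the last 2 of the 6 overlap. Of all 35116 windows of this length in the table, 61.8% held CANNTG at least once and 0.299% held it 6 times or more. CAGATG was in 12.2% of all windows, AGATAA in 9.17% and TGTGGT in 10.98%. The other SEMA4A windows held 3, 0 and 0 CANNTG matches, and the window with 3 overlaps the one shown. PLXNB2 had 4 CANNTG matches, the first 2 of which overlap, and 3.36% of all windows held as many or more. Its 1 TGTGGT match overlaps the second of the 4. SEMA4D had 1 CANNTG match (CACGTG). In C25, PLXNB2, with 4 matches, had a log2 difference of 0.02, and SEMA4D, with 1, had 0.68. Whether the number of matches goes with the response was not tested. AGATAA was in none of the 16 windows. A match describes the letters in these windows and shows no binding.

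SEMA4D (ENSG00000187764), a ligand of PLXNB1, PLXNB2 and CD72 that is shed from T cells, rose with doxycycline in T5. It stood at 133 and 132 CPM with DMSO and at 159 and 161 CPM with doxycycline, and the groups did not overlap. The log2 difference was 0.27 (SE 0.05, adjusted p = 0.00053, edgeR), and it stayed past the threshold under all 10 alternatives tried (adjusted p 5.6e-06 to 0.039). The authors' deposited table for T5 gives SEMA4D a log2 fold change of 0.28 with an adjusted p of 0.0072. In L4 it stood at 140 and 134 CPM with DMSO and at 140 and 128 CPM with doxycycline, with overlapping groups (log2 difference -0.03, SE 0.05, adjusted p = 0.89, edgeR). The response in T5 exceeded that in L4 by 0.30 on the log2 scale (SE 0.08, adjusted p = 0.017, edgeR). That difference missed the threshold with DESeq2 (adjusted p = 0.051) and without any 1 of 5 libraries (T5 DMSO 1 or 2, T5 dox 2, L4 DMSO 1 or L4 dox 2). In C25, SEMA4D stood at 116 and 120 CPM with DMSO and at 182 and 194 CPM with doxycycline, a log2 difference of 0.68 (SE 0.05) given without a test.

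Of the 9 tested genes, SEMA4D and SEMA7A passed the test in T5, against 1.84% of all genes tested. SEMA7A (ENSG00000138623), a GPI-anchored semaphorin that binds PLXNC1 and beta-1 integrins, fell from 295 and 292 CPM to 257 and 261 CPM. Its log2 difference was -0.18 (SE 0.05, adjusted p = 0.031, edgeR), and the groups did not overlap. The call was lost without any 1 of the 4 T5 libraries (adjusted p 0.12 to 0.27) and with total counts in place of TMM (0.094), and the authors' deposited table for T5 gives an adjusted p of 0.10. None of the 9 tested genes passed in L4 by edgeR, with 1 at an unadjusted p under 0.05 (PLXND1), and DESeq2 called 0 as well. Over all genes tested the L4 share was 2.14%. The T5 and L4 responses differed past the threshold for 1 of the 9, SEMA4D, against 0.939% of all genes. In C25, 7 of the 9 were past the threshold, 5 higher and 2 lower, where 60.2% of all genes were. Because that contrast chose the set, nothing is read from the count. The median log2 difference of the 9 was 0.06 in T5, 0.00 in L4 and 0.37 in C25, and that of all genes 0.00, 0.00 and -0.01. The C25 median too comes from the contrast that chose the set, and nothing is read from it.

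**Figure D2:**
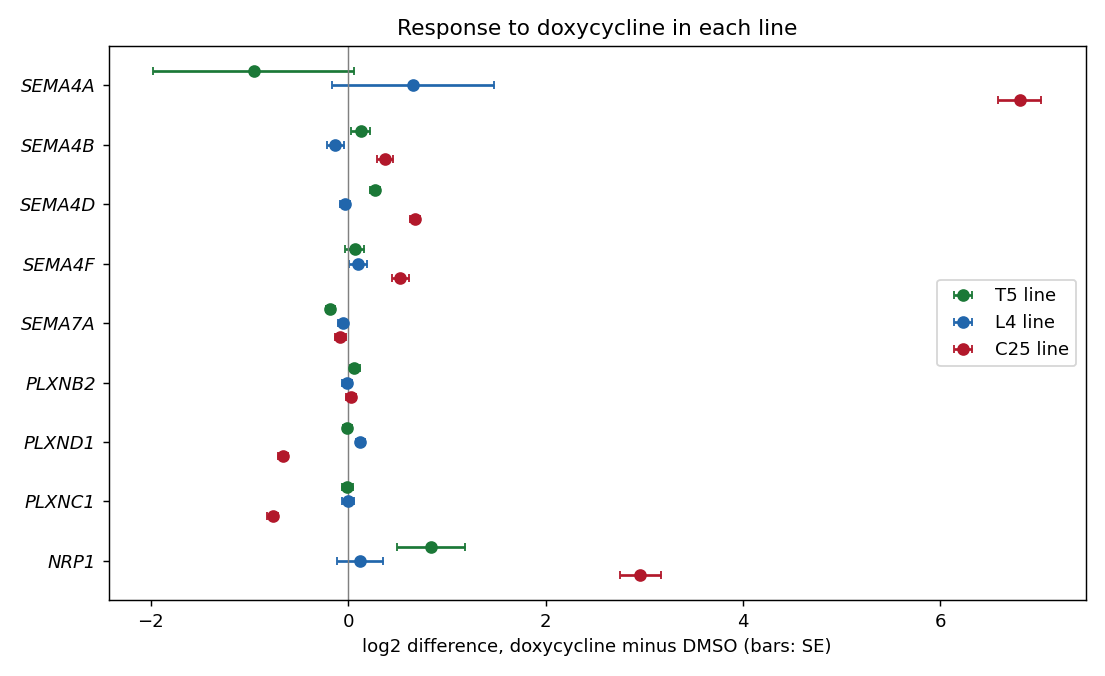
Difference between doxycycline and DMSO on the log2 scale, with its standard error, for the 9 tested genes in the T5 (green), L4 (blue) and C25 (red) lines. SEMA4A at 6.81 and NRP1 at 2.96 stand out in C25, PLXND1 and PLXNC1 lie below 0 there, and SEMA4D is above 0 in T5 and in C25; the C25 values are a description without a test.

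SEMA4B and SEMA4F, both transmembrane ligands of the same class as SEMA4A, were higher in C25 with doxycycline by a smaller factor. SEMA4B (ENSG00000185033) stood at 27.3 and 29.5 CPM with DMSO and at 35.9 and 37.7 CPM with doxycycline in C25 (log2 difference 0.37, SE 0.08). Its T5 libraries held 19.0 and 18.9 CPM with DMSO and 19.1 and 22.2 CPM with doxycycline. The L4 libraries held 23.2 and 24.6 CPM with DMSO and 21.7 and 22.0 CPM with doxycycline. Neither line passed the test (log2 differences 0.13 and -0.13, SE 0.10 and 0.09, adjusted p = 0.66 and 0.63, edgeR).

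SEMA4F (ENSG00000135622) had its lowest levels in T5, with 18.2 and 19.4 CPM with DMSO and 20.2 and 19.3 CPM with doxycycline. L4 libraries held 20.8 and 21.2 CPM with DMSO and 22.4 and 22.7 CPM with doxycycline. Again neither line passed the test (log2 differences 0.07 and 0.10, SE 0.10 and 0.09, adjusted p = 0.87 and 0.74, edgeR). In C25 it stood at 24.1 and 22.1 CPM with DMSO and at 32.3 and 34.3 CPM with doxycycline (log2 difference 0.53, SE 0.08). The dox libraries of C25 were the highest of the 12 for SEMA4A, SEMA4B, SEMA4D and SEMA4F alike. SEMA4C (ENSG00000168758), a PLXNB2 ligand, had 0 to 3 counts in each library, at most 0.195 CPM, and no difference could be tested.

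SEMA7A was the ligand with the highest level per exon length in every group. Levels per kilobase of exon, used here to compare genes, put SEMA7A at 77.2 CPM per kb in T5 and 94.7 in L4 with DMSO. Ranks and shares on this scale depend on the exon lengths, which merge all annotated exons of a gene, whichever transcripts the cells express. With DMSO SEMA7A made up 80.2% of the summed level of the 20 semaphorins in T5 and 81.6% in L4. In C25 the SEMA7A level was 33.1 CPM per kb with DMSO and 31.3 with doxycycline, or 59.7% and 36.0% of the sum. On the CPM scale it stood at 125 and 126 CPM with DMSO and 112 and 126 CPM with doxycycline there, with overlapping groups (log2 difference -0.08, SE 0.05). L4 libraries held 348 and 372 CPM with DMSO and 352 and 341 CPM with doxycycline, again overlapping (log2 difference -0.05, SE 0.05, adjusted p = 0.73, edgeR). In C25 with doxycycline SEMA4A came second, with 23.8 CPM per kb and 27.4% of the sum, ahead of SEMA4D with 13.3 CPM per kb and 15.3%. Without division by exon length the order in that group was SEMA4D, SEMA4A and SEMA7A, with means of 188, 163 and 119 CPM. The summed level of semaphorins in C25 was 55.5 CPM per kb with DMSO and 87.0 with doxycycline.

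**Figure D3:**
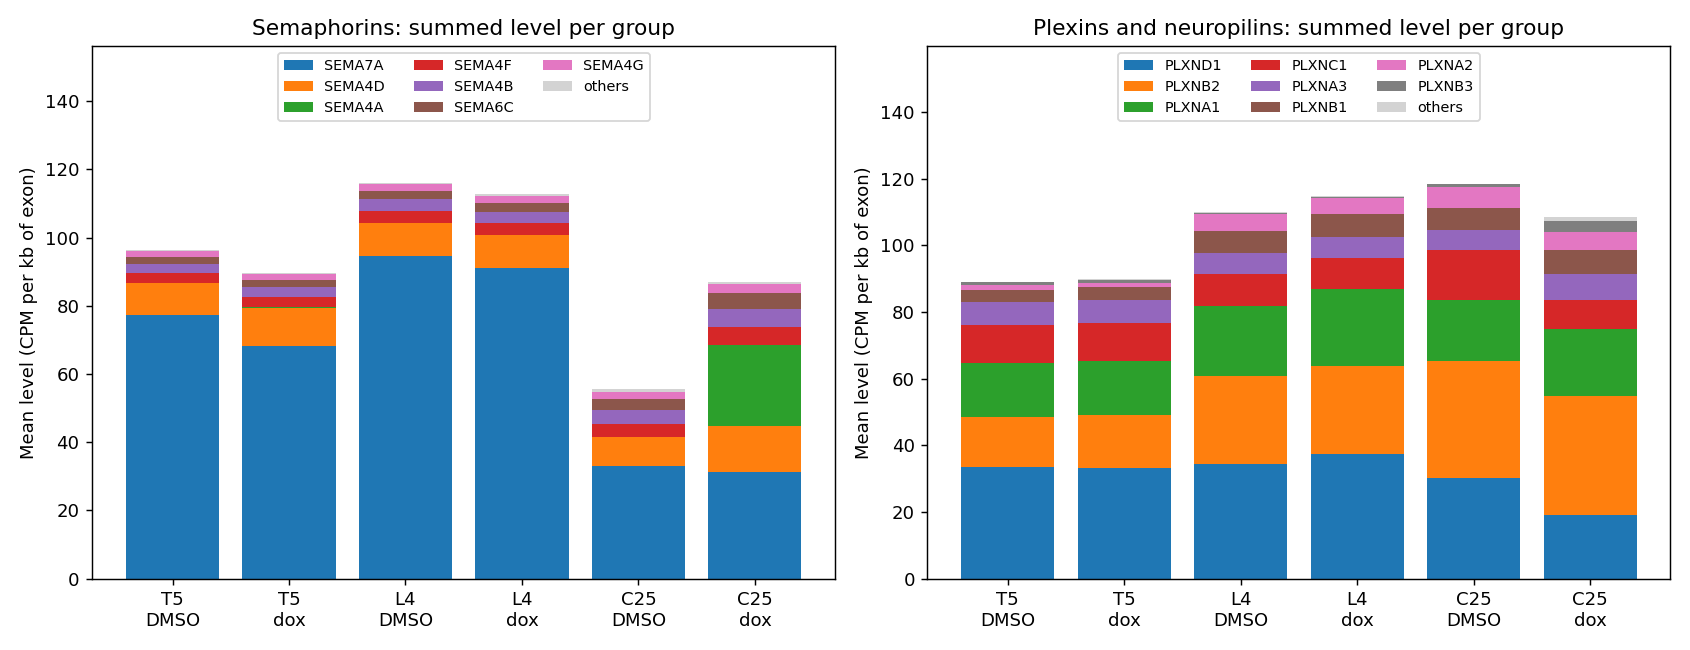
Mean level per group in CPM per kilobase of exon, stacked by gene, for 20 semaphorins (left) and the plexins and neuropilins (right); genes that stay under 2 CPM per kb in every group are summed as others. SEMA7A makes up most of the semaphorin bar in T5 and L4, SEMA4A adds 23.8 CPM per kb in C25 with doxycycline, and PLXNB2 is the largest receptor block in C25.

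Among the receptors, none of the 4 passed the test in T5 or in L4 (edgeR, 1 at an unadjusted p under 0.05 in each line, 0 called by DESeq2). Over all genes tested, 1.84% passed in T5 and 2.14% in L4. PLXND1 (ENSG00000004399), a receptor for class 3 and class 4 semaphorins with a known role in thymocyte migration, was lower in C25 with doxycycline. It stood at 285 and 301 CPM with DMSO and at 181 and 190 CPM with doxycycline, a log2 difference of -0.66 (SE 0.05). T5 libraries held 327 and 324 CPM with DMSO and 315 and 332 CPM with doxycycline, with overlapping groups (log2 difference -0.01, SE 0.05, adjusted p = 0.98, edgeR). In L4 the values were 328 and 341 CPM with DMSO and 369 and 361 CPM with doxycycline (log2 difference 0.12, SE 0.05, adjusted p = 0.19, edgeR). The C25 dox libraries were the lowest of the 12.

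PLXNC1 (ENSG00000136040), the plexin that binds SEMA7A, was likewise lower in C25 with doxycycline. It stood at 154 and 144 CPM with DMSO, the highest of the 12 libraries, and at 92.0 and 83.2 CPM with doxycycline (log2 difference -0.76, SE 0.06). T5 libraries held 112 and 113 CPM with DMSO and 114 and 109 CPM with doxycycline. L4 libraries held 95.3 and 92.1 CPM with DMSO and 95.9 and 91.2 CPM with doxycycline. The groups overlapped within both lines (log2 differences -0.01 and 0.00, SE 0.06 each, adjusted p = 0.98 and 1.0, edgeR).

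NRP1 (ENSG00000099250), a coreceptor of class 3 semaphorins and of VEGF that has also been reported to bind SEMA4A, was the receptor with the highest fold in C25. It stood at 1.54 and 1.87 CPM with DMSO and at 13.9 and 12.7 CPM with doxycycline (log2 difference 2.96, SE 0.21). In T5 it was 0.983 and 0.777 CPM with DMSO and 1.51 and 1.65 CPM with doxycycline. These T5 groups did not overlap, but the difference did not pass over all genes (log2 difference 0.84, SE 0.35, unadjusted p = 0.017, adjusted p = 0.25, edgeR). L4 libraries held 2.75 and 2.48 CPM with DMSO and 2.90 and 2.79 CPM with doxycycline (log2 difference 0.12, SE 0.23, adjusted p = 0.91, edgeR).

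PLXNB2 (ENSG00000196576), a receptor of class 4 semaphorins, differed between the lines and not detectably with treatment. Its T5 libraries held 112 and 108 CPM with DMSO and 113 and 117 CPM with doxycycline. L4 libraries held 185 and 201 CPM with DMSO and 190 and 191 CPM with doxycycline. C25 libraries held 242 and 267 CPM with DMSO and 260 and 258 CPM with doxycycline. The log2 differences with doxycycline were 0.06 in T5 (SE 0.06, adjusted p = 0.75), -0.01 in L4 (SE 0.05, adjusted p = 0.96) and 0.02 in C25 (SE 0.05, no test). Per kilobase, PLXND1 was the first of the plexins and neuropilins in T5 and L4, and PLXNB2 in C25. PLXND1 made up 37.3% to 37.9% of their summed level in T5 with DMSO, and in C25 25.4% with DMSO and 17.0% to 18.1% with doxycycline. Without division by exon length, PLXND1 was ahead of PLXNB2 in C25 with DMSO, with means of 293 and 255 CPM.

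The lines were also compared with DMSO alone, where a large share of all genes differed. T5 and L4 differed for 5 of the 9 tested genes, where 36.4% of all genes did. SEMA4B, SEMA7A, PLXNB2 and NRP1 were lower in T5, and PLXNC1 was higher, with log2 differences of -0.34, -0.29, -0.81, -1.56 and 0.26 (adjusted p = 0.0025, 4.5e-07, 3.3e-22, 1.9e-05 and 0.00013, edgeR). C25 differed from T5 for all 9, where 45.4% of all genes differed, and from L4 for 7, where 41.0% did. These comparisons share the C25 DMSO libraries with the contrast that chose the genes, so that SEMA4A, which is in both counts, is no independent case, and they share DMSO libraries with each other. The difference in SEMA7A was the clearest by its p-value, with C25 lower than T5 by a log2 of -1.22 (SE 0.05, adjusted p = 1.0e-33) and lower than L4 by -1.52 (SE 0.05, adjusted p = 9.8e-40). PLXNB2 was higher in C25 by 1.21 against T5 and 0.40 against L4 (adjusted p = 1.2e-32 and 2.3e-10), and PLXNC1 by 0.41 and 0.67 (adjusted p = 1.9e-09 and 2.6e-17). SEMA4A is set aside here, as it passed the filter on low counts only through C25. SEMA4B also kept its call against T5 under every alternative (log2 0.58, adjusted p = 8.6e-08), and 4 others did not. SEMA4D (log2 -0.17, adjusted p = 0.0074) lost it with total counts and without T5 DMSO 1 or C25 DMSO 1 (up to 0.078). SEMA4F (0.30, adjusted p = 0.0062) lost it without either of the same libraries (up to 0.11). PLXND1 (-0.15, adjusted p = 0.0054) lost it with total counts and without C25 DMSO 1 (up to 0.12), and NRP1 (0.95, adjusted p = 0.016) without T5 DMSO 2 or C25 DMSO 2 (up to 0.13). Against L4, SEMA4D and PLXND1 were lower in C25 by log2 differences of -0.22 and -0.19 (adjusted p = 0.00052 and 0.00050), and SEMA4B was higher by 0.25 (adjusted p = 0.016). The last call was lost with DESeq2 and without L4 DMSO 1 or C25 DMSO 2 (up to 0.18). Of the calls against T5, those of SEMA4D, SEMA4F and PLXND1 were the ones lost without the first C25 DMSO library. Fewer of all genes were called in that setting too.

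In order of mean level from low to high, SEMA4A ran T5 dox, L4 DMSO, T5 DMSO, L4 dox, C25 DMSO and C25 dox. The neighbours among the first 4 groups differed by a few counts, and the C25 DMSO and C25 dox libraries lay above every library of the groups before them. PLXNB2 ran from T5 through L4 to C25, with no detectable step between the treatments of a line. SEMA7A ran from C25 through T5 to L4, and PLXND1 had C25 dox and then C25 DMSO at the low end. Over the 12 libraries, Pearson's r of log2 (CPM + 0.5) with SEMA4A was 0.94 for SEMA4F, 0.90 for NRP1, 0.89 for SEMA4B, 0.69 for SEMA4D, 0.61 for PLXNB2, -0.34 for PLXNC1, -0.76 for SEMA7A and -0.97 for PLXND1. These values follow how the libraries of C25 stand against the others, with doxycycline alone or, as for PLXNB2 and SEMA7A, in both treatments, and are not independent evidence. Of 11481 genes compared, those most like SEMA4A by this measure included CD40LG, CREB3L3, FAM117A and ENDOD1, with r of 0.996 to 0.997. CD40LG, which encodes the CD40 ligand of activated T cells, had a mean of 0.546 CPM in C25 with DMSO and 39.1 CPM with doxycycline, and at most 0.0650 CPM in the T5 and L4 groups.

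The tested genes nearest to SEMA4A on the chromosome ranged from lower to higher with doxycycline in C25, all with smaller differences than SEMA4A. In C25, SLC25A44, the next gene on one side and a mitochondrial carrier, had a mean of 72.3 CPM with DMSO and 367 CPM with doxycycline (log2 difference 2.35, SE 0.06). LMNA, the nearest gene on the other side, which encodes lamin A/C, had 3.50 CPM and 3.37 CPM (log2 difference -0.06, SE 0.23). Further out, LAMTOR2 and PMF1 had log2 differences of 0.27 and 0.26, MEX3A -1.29 and BGLAP 0.97 (SE 0.46). PMF1 and BGLAP lie next to each other, and their counts may not be fully separable.

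**Figure D4:**
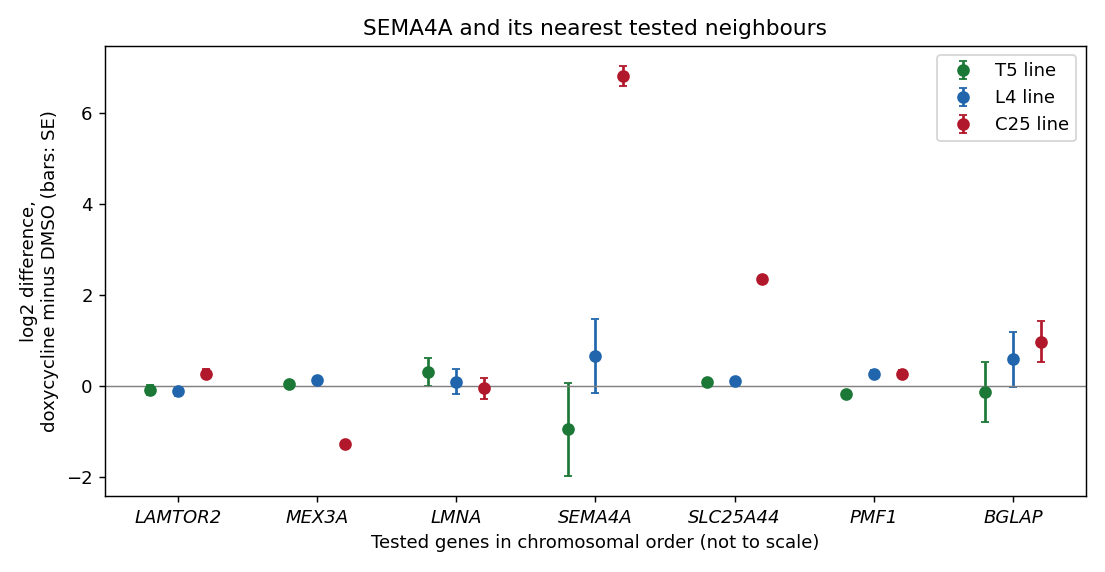
Difference between doxycycline and DMSO on the log2 scale, with its standard error, for SEMA4A and the 3 nearest tested genes on each side, in chromosomal order and not to scale, in T5 (green), L4 (blue) and C25 (red). In C25, SEMA4A is at 6.81 and SLC25A44 at 2.35, MEX3A is at -1.29 and LMNA is near 0.

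Of the 21 other semaphorins, plexins and neuropilins, 10 were tested. In T5, PLXNA2, a receptor of class 3 and class 6 semaphorins, was the 1 called, against 1.84% of all genes tested (log2 difference -0.34, SE 0.10, adjusted p = 0.043, edgeR). Its mean went from 20.1 CPM to 15.9 CPM. That call was lost without any 1 of the T5 libraries, with total counts in place of TMM and with no filter on low counts. None of the 10 passed in L4 by edgeR or by DESeq2, with 1 at an unadjusted p under 0.05, where 2.14% of all genes were called. In C25 the largest differences, given without a test, were PLXNB3 (1.78, from 6.75 to 23.2 CPM), SEMA3G (-1.24, from 2.12 to 0.895 CPM) and SEMA6C (0.61, from 18.2 to 27.8 CPM). SEMA3C, SEMA3D and the receptors MET, LILRB2 and TREM2 had no count in any library.

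Of the other receptors and coreceptors, 5 were tested, and none passed in T5 or L4 (edgeR, 1 and 0 at an unadjusted p under 0.05, 0 called by DESeq2). The share over all genes tested was 1.84% in T5 and 2.14% in L4. ITGB1, the beta-1 integrin chain of a SEMA7A receptor, had a mean of 124 CPM in C25 with DMSO and 370 CPM with doxycycline (log2 difference 1.57, SE 0.05). ITGA1, an alpha chain that pairs with it, stood at 15.8 CPM in T5 and 3.89 CPM in L4 with DMSO, and at 0.0963 CPM in C25. CD72, a SEMA4D receptor, had 41.6 CPM and 30.3 CPM in C25 with DMSO and doxycycline (log2 difference -0.46, SE 0.08).

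Of 4 proteases that cut or process semaphorins and their receptors, ADAM10, which sheds several surface proteins, was the 1 called in L4, where 2.14% of all genes were called. None was called in T5 (edgeR, 1 at an unadjusted p under 0.05, 0 by DESeq2), where 1.84% of all genes were. It fell in L4 from 223 ± 9.65 CPM to 178 ± 7.45 CPM (SD, n = 2), a log2 difference of -0.33 (SE 0.05, adjusted p = 1.7e-06, edgeR). In T5 it stood at 245 ± 0.374 CPM with DMSO and 272 ± 9.90 CPM with doxycycline (SD, n = 2), which did not pass (log2 difference 0.15, SE 0.05, adjusted p = 0.080, edgeR). The 2 responses differed by 0.48 (SE 0.07, adjusted p = 7.3e-07, edgeR). In C25, ADAM10 went from a mean of 255 CPM to 593 CPM and FURIN, a proprotein convertase, from 77.3 to 167 CPM, given without a test. MMP14 and ADAM17 differed there by log2 values of 0.62 (SE 0.33) and 0.09 (SE 0.06).

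None of the 31 tested genes of plexin signalling passed in T5 or L4, or differed between them (edgeR, 5, 6 and 5 at an unadjusted p under 0.05, 0 called by DESeq2 each time). The shares over all genes tested were 1.84%, 2.14% and 0.939%. In C25 the median log2 difference of the 31 was 0.26, against -0.01 for all genes. Past the threshold, 16 were higher and 6 lower, where 60.2% of all genes were called. Nothing is read from that count or from the C25 median. The largest were ARHGEF12 (4.60, SE 0.73), MICAL1 (1.55, SE 0.05), ARHGEF11 (1.27, SE 0.08) and RRAS (1.11, SE 0.16). ARHGEF11 and ARHGEF12 encode RhoA exchange factors that bind class B plexins, MICAL1 an actin-oxidising enzyme downstream of class A plexins, and RRAS a substrate of the plexin GTPase-activating domain. ARHGEF12 rests on a mean of 0.129 CPM with DMSO and 3.30 CPM with doxycycline.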

How the data were processed

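Per the submitters' processing notes, STAR 2.5.2a, featureCounts and DESeq2 1.12.4 were used with hg19; for the strand setting of counting, none is given in the sources used here. The authors deposited raw counts per gene, and 1 table per line whose columns, per the file headers, hold a mean normalised signal, a log2 fold change, its error, a test score and p-values. The members and gene lists were chosen with earlier results of these data known. In edgeR 4.0.16 (R 4.3.3), filterByExpr with the 6 groups kept 16287 genes, libraries were scaled by TMM, and 1 mean per group was fitted to all 12 libraries with a robust quasi-likelihood model, common biological coefficient of variation 3.35%. A gene was called at an adjusted p (Benjamini-Hochberg, all tested genes) under 0.05. A standard error is the log2 difference over the root of F, or the counting error if larger. DESeq2 1.42.0 was an alternative. CPM was divided by merged exon length from GENCODE 29, used for lengths only. Replicates of a group differed by more than sampling noise (chi-square per degree of freedom 1.73 to 2.79). Besides all members, the genes named are, in each list, up to 4 called in T5, in L4 or between them, up to 4 with the largest C25 difference, the 5 most like SEMA4A (1 of them is not reported here) and 3 neighbours on each side; CD72, MET, LILRB2 and TREM2 were added after their values were seen. The scripts were tested on simulated data with 1 spread for all genes and with changes larger than those called for members in T5. That run checked the code and does not measure how reliable such small differences are.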

Additional observations from a re-analysis of the deposited data

Results flagged for a closer look

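The responses of T5 and L4 to doxycycline were compared directly for 61 genes of the members and lists, and 2 differed past the threshold by edgeR, where 0.939% of all genes tested did. For SEMA4D the T5 response exceeded the L4 response by 0.30 on the log2 scale (SE 0.08, adjusted p = 0.017, range over the alternatives 0.0062 to 0.30). For ADAM10 the difference was 0.48 (SE 0.07, adjusted p = 7.3e-07), and it was past the threshold under all 14 alternatives (highest adjusted p = 0.00016).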

How the results depend on the processing

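Each alternative changed 1 choice, except DESeq2, which changes the scaling, the spread model and the test together. In T5, 299 genes were called, and 523 when only the T5 libraries were fitted; in L4, 349 were called, and 218 with DESeq2. Leaving out 1 library at a time gave 100 to 155 genes in T5, 155 to 284 in L4, 8726 to 9023 in C25, 104 to 153 for T5 minus L4, and with DMSO 4596 to 4932 (T5 against L4), 6008 to 6312 (C25 against T5) and 5340 to 5659 (C25 against L4). Total counts in place of TMM moved the split of higher and lower calls from 160 and 139 to 216 and 57 in T5, from 4644 and 5168 to 5611 and 4277 in C25, from 3654 and 3747 to 4341 and 2995 for C25 against T5, and from 3328 and 3350 to 4103 and 2459 for C25 against L4; the cause was not tested. To see whether replicate numbers pair the samples, the log2 difference between the 2 replicates of a group was taken for each gene. Across genes, these differences correlated between the DMSO and dox groups at 0.0993 in T5, -0.0402 in L4 and 0.0266 in C25. Between DMSO groups they correlated at 0.0355 (T5 and L4), 0.0791 (T5 and C25) and 0.161 (L4 and C25). The values do not measure how alike the replicates of a group are. Only the pair of L4 and C25 with DMSO was over 0.1, so the numbers were not taken to pair the samples. With the replicate block, 358, 410, 9885, 184, 6108, 7544 and 6832 genes were called, in the order of the 7 comparisons above, and the same members as without it in the 6 comparisons tested. Where a library is left out, the lone sample is assumed to vary like the other groups. For genes at the level of SEMA4A in T5 and L4, depth is the limit. Over all values of single genes and alternatives, 767 kept their side of the threshold or, without a test, stayed within the replicate spread. Any value without an adjusted p counted among them. So did differences that changed sign without a call, such as SEMA4D in L4 (-0.10 to 0.03 over the alternatives). Another 30 lost their call, and 2 gained one (ADAM10 in T5, with total counts and with the T5 libraries alone). A further 9, without a test, moved beyond the replicate spread. No difference past the threshold changed direction.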
